A study of Homo sapiens with 12 samples.

Results

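The mRNAs of the 7 cyclin-dependent kinase inhibitors were followed as EndoC-βH3 cells became senescent. Senescent cells held more CDKN1A (p21) and CDKN1C (p57) mRNA than non-senescent cells, and less CDKN2C (p18) and CDKN2D (p19) mRNA. CDKN2A (p16 and p14ARF) mRNA was lower, but not by enough to pass the fold change limit. CDKN2C passed that limit narrowly, and not in batch A alone. CDKN1B (p27) and CDKN2B (p15) were not called in either direction. The genes were taken by symbol from an expression table of 35337 genes. Each of the 7 had 1 row, and all 7 were among the 13847 genes with enough reads to be tested.

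EndoC-βH3 is a beta-like cell line derived from human fetal pancreas, and its genotype is given as WT. Its growth depends on transgenes for SV40 large T antigen and hTERT, and it carries a tamoxifen-dependent CreER recombinase that excises them. The 6 senescent samples came from cells treated with 4-hydroxy-tamoxifen for 3 weeks, and the 6 non-senescent samples were untreated controls of the same line. Their names carry the letter of one of 2 independent batches, with 2 samples of each group in batch A and 4 of each in batch B. All samples thus share 1 line and the same transgenes before excision, and treatment cannot be told apart from excision because no sample had the drug without the recombinase. Expression was measured by CEL-seq2, which reads the 3′ end of transcripts, and levels are normalised read counts, that is, reads divided by a size factor per library.

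Cyclin-dependent kinase inhibitors are the brakes of the cell cycle. The INK4 proteins, encoded by CDKN2A, CDKN2B, CDKN2C and CDKN2D, bind CDK4 and CDK6 and keep D-type cyclins away from them. The CIP/KIP proteins, encoded by CDKN1A, CDKN1B and CDKN1C, bind assembled cyclin and CDK complexes, above all those of CDK2 with cyclins E and A. Both families keep Rb unphosphorylated, so that E2F target genes remain silent. p16 and p21 are markers of senescence, and both accumulate in many senescent cell types. SV40 large T antigen, which drives growth of the line before excision, is known to bind Rb.

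The stretches before the transcription starts are given as a description of the genes. Reads of the 3′ end do not measure them. Promoter sequences of 6 of the 7 genes, with 9 starts, were found in RefSeq (GRCh38.p14), and the 250 bases before each start were searched on both strands. The windows of CDKN1A (chr6:36678464-36678713, + strand), which rose most of the 7, and of CDKN2D (chr19:10568980-10569229, - strand), which fell most, are shown with those of the separate starts of the p16 transcript (chr9:21974858-21975107, - strand) and the p14ARF transcript (chr9:21995325-21995574, - strand), which feed a single CDKN2A value. Capitals mark the GC box GGGCGG or its reverse complement.
CDKN1A: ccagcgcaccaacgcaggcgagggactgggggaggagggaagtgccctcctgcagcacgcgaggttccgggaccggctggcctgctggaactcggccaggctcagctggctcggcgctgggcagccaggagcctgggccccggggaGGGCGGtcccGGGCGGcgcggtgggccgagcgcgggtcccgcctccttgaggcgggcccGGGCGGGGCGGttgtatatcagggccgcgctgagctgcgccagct
CDKN2D: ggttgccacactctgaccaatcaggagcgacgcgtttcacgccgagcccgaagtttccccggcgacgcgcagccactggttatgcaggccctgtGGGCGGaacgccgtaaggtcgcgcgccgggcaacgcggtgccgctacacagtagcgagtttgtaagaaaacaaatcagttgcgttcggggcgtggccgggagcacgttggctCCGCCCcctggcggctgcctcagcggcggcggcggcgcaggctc
CDKN2A, p16 start: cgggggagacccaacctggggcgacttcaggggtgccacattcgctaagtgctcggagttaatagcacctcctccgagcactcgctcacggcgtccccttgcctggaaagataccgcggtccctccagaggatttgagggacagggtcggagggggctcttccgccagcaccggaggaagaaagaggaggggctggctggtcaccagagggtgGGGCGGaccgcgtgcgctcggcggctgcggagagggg
CDKN2A, p14ARF start: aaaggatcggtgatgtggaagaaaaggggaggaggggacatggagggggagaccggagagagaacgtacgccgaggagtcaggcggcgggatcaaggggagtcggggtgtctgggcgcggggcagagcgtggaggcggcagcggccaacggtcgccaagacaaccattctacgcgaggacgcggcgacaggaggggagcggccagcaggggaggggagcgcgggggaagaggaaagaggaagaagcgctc
The CDKN1A window held 4 GC boxes, of which the last pair overlap by 1 base, the CDKN2D window 2, the p16 window 1 and the p14ARF window 0. A GC box was present in 7 of the 9 windows of the family and in 42.6% of 35116 windows of all genes. The CDKN1A window was 76.4% G and C, against a median of 58% over all windows. The TATA box TATAAA (10.7% of all windows), the E2F letters TTTCCCGC, TTTGGCGC, TTTCGCGC and TTTGCCGC (2.79%) and the cell cycle element TTTGAA (13.3%) had no match in any of the 9 windows.

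CDKN2A and CDKN2B lie 7602 bases apart on chromosome 9 and are close paralogs. The longest run of bases shared by their main annotated transcripts is 80. It ends 616 bases before the 3′ end of CDKN2A and 3163 before that of CDKN2B. How reads in similar stretches were divided is not given in the sources used here. The p16 and p14ARF transcripts have all but their first exons in common, so that 3′ reads give a single value for both.

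Libraries held 8873569 to 17106776 reads in batch A and 4672924 to 7063264 in batch B. The 16 beta cell markers examined were present in every library and summed to 75115 to 94851 reads in 1000000 (ppm) in non-senescent and 88122 to 119797 ppm in senescent cells. Most of that sum was CHGA, a gene of all endocrine cells (67867 to 87028 against 61822 to 103833 ppm), which was not called, and of the 16 genes 6 were called higher, INS among them (1614 to 4829 against 6589 to 23520 ppm), and PCSK1 was called lower. The alpha cell sum was 549 to 1367 against 296 to 731 ppm, with GCG called lower. The delta cell sum, nearly all SST, was 23197 to 40493 against 14999 to 18928 ppm, with SST and HHEX called lower. The acinar sum was 4.77 to 8.18 against 18.6 to 34.3 ppm, and all but a trace of it was CPA1, which was called higher. The ductal sum, nearly all KRT19, was 34.0 to 54.6 against 10.2 to 21.5 ppm, with KRT19 called lower. Summed levels were 1.24 to 18.4 against 1.29 to 6.76 ppm for the stroma list, 0.676 to 2.26 against 0.335 to 1.93 ppm for endothelium and 2.82 to 7.49 against 1.75 to 5.52 ppm for leukocytes. Of these lists PDGFRB, VWF and CD3E were at 0 in all 12 libraries, COL1A1, PECAM1, PTPRC and CD68 had reads in all of them, and PTPRC was called lower. The part of these shifts in the results was not tested, and in bulk RNA fewer cells of a type cannot be told apart from less RNA per cell.

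Of the 7 inhibitors, 2 were called higher and 2 lower in senescent cells with limma, where a call needs a fold change over 1.5 besides an adjusted p under 0.1. With every library scaled to the same total, CDKN2A was called too, which made 3 lower. Over all 13847 genes tested, 11.6% were called higher and 11.8% lower. The groups did not overlap within either batch for 2 members that were higher, CDKN1A and CDKN1C, against 11.9% of all genes. They did not overlap for 3 members that were lower, CDKN2A, CDKN2C and CDKN2D, against 11.9% of all genes. The 2 members called higher were both of the CIP/KIP family, whose remaining member, CDKN1B, was at -0.30 and not called. Of the INK4 members, CDKN2C and CDKN2D were called lower, while CDKN2A (-0.52) and CDKN2B (-0.19) were not called in the main test. The median log2 fold change was -0.30 over the 7 members and 0.01 over all genes tested.

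**Figure D1:**
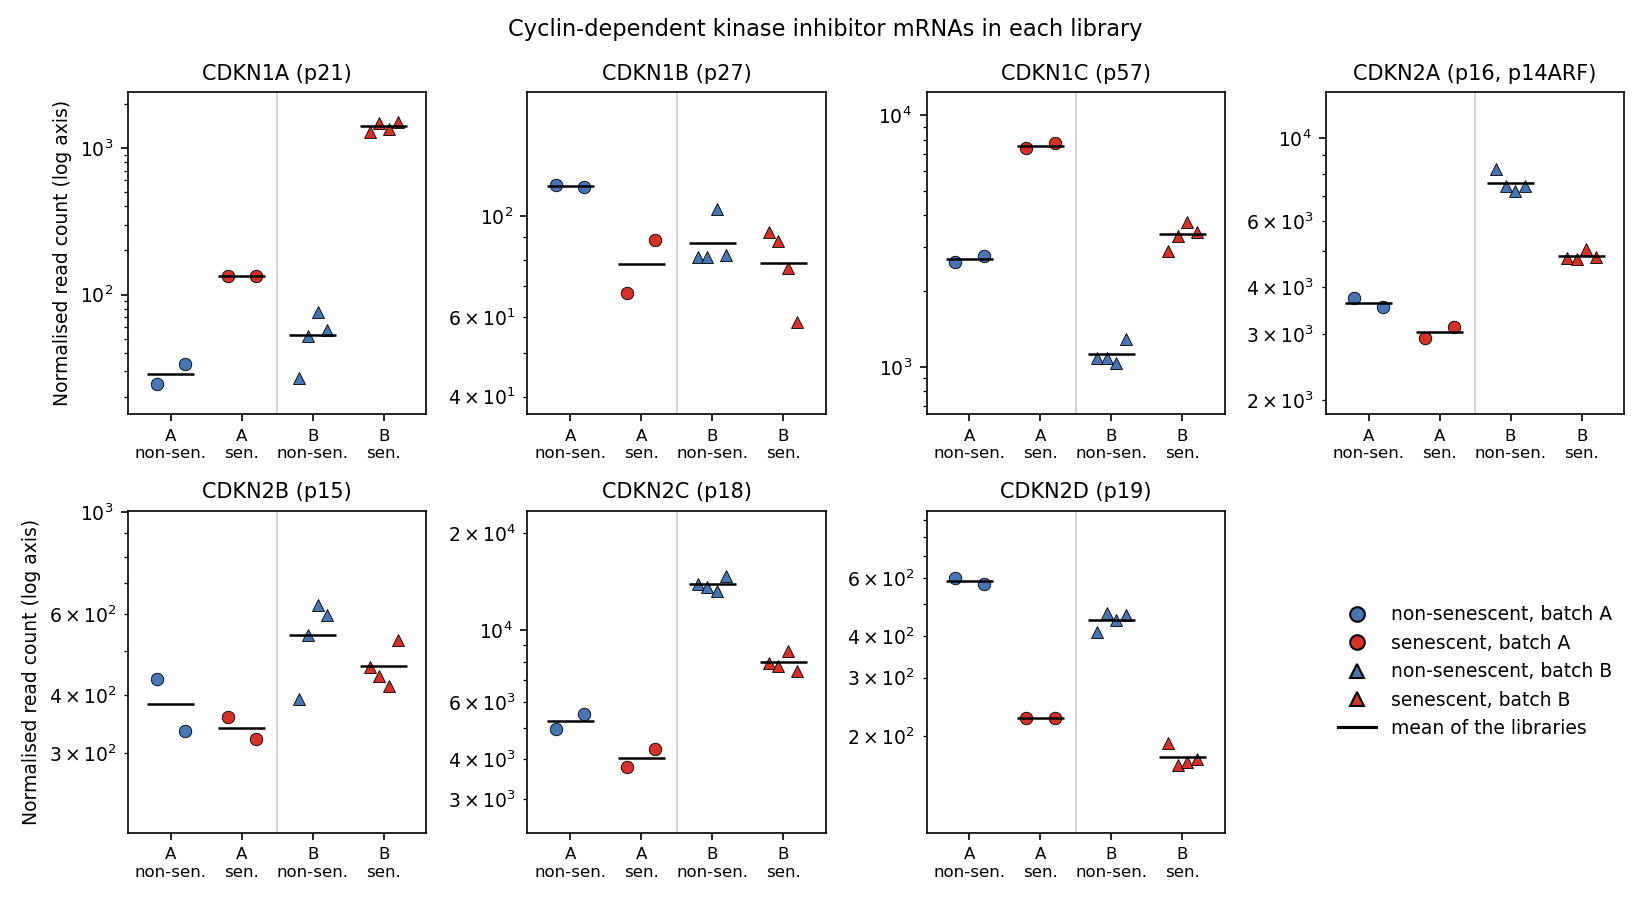
Normalised read counts of the 7 inhibitors in each of the 12 libraries, on log axes with a range of their own per gene, with batch A (circles) left and batch B (triangles) right of the grey line and a bar at the mean of each set. In senescent libraries CDKN1A and CDKN1C lay above the non-senescent libraries in both batches and CDKN2A, CDKN2C and CDKN2D below them. The groups overlapped for CDKN2B in both batches and for CDKN1B in batch B alone.

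CDKN1A, on chromosome 6 (36676460 to 36687337, + strand, GRCh38), encodes p21, which inhibits CDK2 complexes and also binds PCNA. In batch A it stood at 24.45 and 33.4 normalised reads in non-senescent cells and at 134 and 133 in senescent cells. In batch B it stood at 27.1, 52.3, 76.0 and 57.2 in non-senescent cells and at 1286, 1478, 1353 and 1501 in senescent cells. Every senescent library was above every non-senescent one, and the senescent libraries of batch B were about an order of magnitude above those of batch A. The mean went from 45.1 ± 20.2 to 981 ± 661 normalised reads (SD, n = 6). The log2 fold change was 3.92 ± 0.35 (SE), a 15.1-fold rise, with an adjusted p of 1.08e-07 by limma. Only 8 of the 13847 genes tested had a larger log2 fold change. The non-senescent values rest on 18 to 52 reads per library, so their relative counting error is large beside that of the senescent libraries, which held 220 to 1408 reads.

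CDKN1C, on chromosome 11 (2883213 to 2885775, - strand), encodes p57, an imprinted inhibitor expressed from the maternal allele. Its non-senescent libraries held 2606 and 2766 normalised reads in batch A and 1080, 1086, 1036 and 1288 in batch B. Its senescent libraries held 7403 and 7744 in batch A and 2900, 3325, 3775 and 3440 in batch B. Within each batch every senescent library was above every non-senescent one, while the batch B senescent libraries were close to the batch A non-senescent ones. The mean rose from 1644 ± 814 to 4765 ± 2197 (SD, n = 6), and the log2 fold change was 1.55 ± 0.07 (SE), or 2.93-fold, with an adjusted p of 4.06e-11 by limma. Per kb of transcript, mean normalised reads of CDKN1C went from 1515 to 4272 in batch A and from 633 to 1895 in batch B, a larger gain in level than that of CDKN1A, which went from 13.7 to 63.0 and from 25.1 to 663.

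CDKN1B, on chromosome 12 (12685498 to 12722369, + strand), encodes p27, which is best known to be controlled through degradation of the protein by SKP2. Per kb it was the lowest of the inhibitors in senescent cells. Senescent libraries held 67.8 and 88.8 normalised reads in batch A and 58.5 to 92.1 in batch B. Non-senescent cells had 117 and 116 in batch A and 81.2 to 104 in batch B. The groups were apart in batch A and overlapped in batch B. The log2 fold change of -0.30 ± 0.15 (SE) had an adjusted p of 0.131 by limma and a 95% interval from -0.61 to 0.02, which leaves room for a fall of the size of the fold change limit.

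CDKN2D, on chromosome 19 (10566460 to 10569059, - strand), encodes p19, an INK4 protein distinct from p14ARF. It was at 601 and 577 normalised reads in the non-senescent libraries of batch A and at 411, 472, 449 and 466 in those of batch B. Senescent libraries were at 227 and 226 in batch A and at 190, 163, 166 and 171 in batch B. No library of either group came near the other. The mean fell from 496 ± 75.6 to 191 ± 29.7 (SD, n = 6), and the log2 fold change was -1.38 ± 0.08 (SE), a 2.60-fold fall, with an adjusted p of 5.06e-10 by limma. A larger fall was seen for 501 of the 13847 genes.

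CDKN2C, on chromosome 1 (50960745 to 50974634, + strand), encodes p18. Non-senescent libraries held 4950 and 5510 normalised reads in batch A and 13960, 13601, 13251 and 14697 in batch B. Senescent libraries held 3783 and 4302 in batch A and 7914, 7782, 8660 and 7481 in batch B. Senescent libraries were lower within each batch, but those of batch B were above the non-senescent ones of batch A. The log2 fold change was -0.66 ± 0.08 (SE), a 1.58-fold fall, with an adjusted p of 3.30e-06 by limma. It was thus close to the limit of 1.5, and in batch A alone the change of -0.37 was under that limit.

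CDKN2A, on chromosome 9 (21967752 to 21995301, - strand), encodes both p16, an INK4 protein, and p14ARF, which restrains MDM2. Non-senescent libraries held 3738 and 3550 normalised reads in batch A and 8286, 7461, 7220 and 7471 in batch B. Senescent libraries held 2939 and 3130 in batch A and 4776, 4764, 5053 and 4822 in batch B. As for CDKN2C, each batch had its senescent libraries below its non-senescent ones. The non-senescent libraries of batch B were 2.09 times those of batch A, a larger ratio than that between groups in either batch. The log2 fold change was -0.52 ± 0.07 (SE), with an adjusted p of 1.60e-05 by limma, and the 1.43-fold difference was under the fold change limit. It passed that limit in batch B alone, at -0.65, and with every library scaled to the same total, at -0.63, a scaling that moved the median of all genes from 0.01 to -0.09. For p16 protein the authors reported a rise in this line after Cre activation, which differed in size from cell to cell. The value here is mRNA of p16 and p14ARF together, and protein was not measured in these libraries. CDKN2A shares 593 exon bases with the antisense CDKN2B-AS1. CDKN2C shares 617 with an antisense gene that has no symbol, and CDKN1A shares 146 with the antisense DINOL. None of these antisense genes was found among the genes of the expression table. The shared bases lie toward the 5′ end of each inhibitor, away from the annotated 3′ ends of its coding transcripts. Whether counting used the strand is not given in the sources used here.

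CDKN2B, on chromosome 9 (22002903 to 22009305, - strand), encodes p15, known as a target of TGF-beta signalling. It lay at 335 to 433 normalised reads in non-senescent and 322 to 359 in senescent cells of batch A. In batch B it lay at 393 to 630 and 419 to 528. The groups overlapped in both batches, and the log2 fold change of -0.19 ± 0.11 (SE, adjusted p of 0.189 by limma) had a 95% interval from -0.43 to 0.04. A fall of the size seen for CDKN2C is outside that interval. For each CDKN2A read there were 0.0474 to 0.116 CDKN2B reads without senescence and 0.0829 to 0.122 with it.

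**Figure D2:**
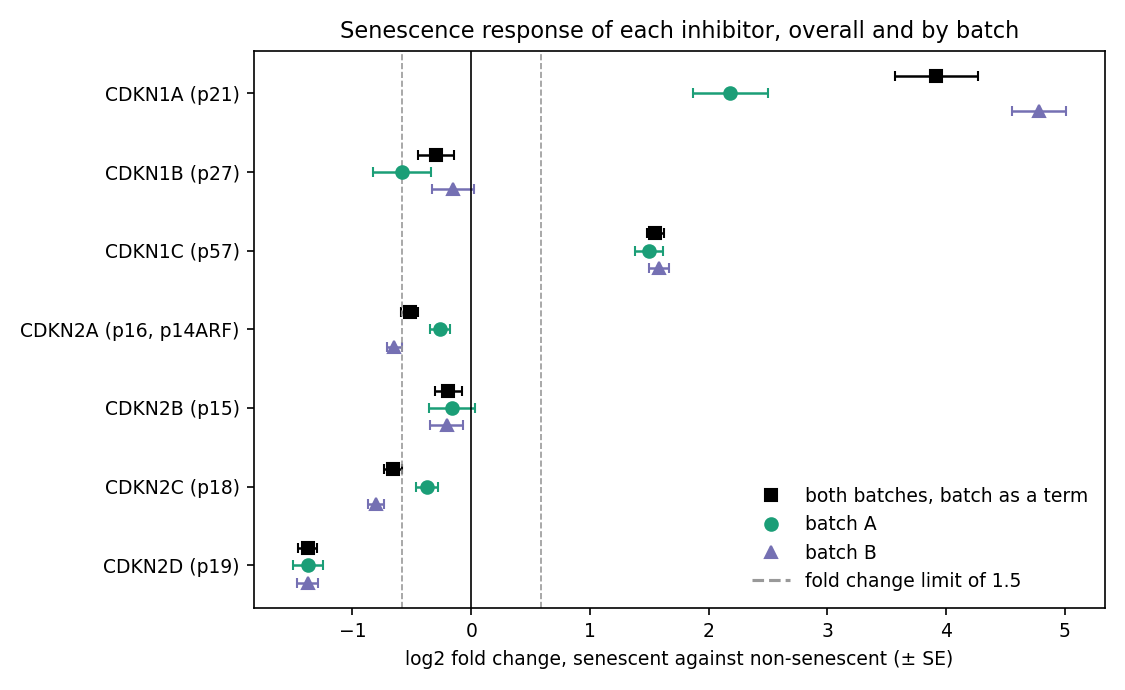
log2 fold changes of senescent against non-senescent cells with SE bars for the 7 inhibitors, fitted over both batches with batch as a term (squares), in batch A (circles) and in batch B (triangles), with dashed lines at a fold change of 1.5. The batch values of CDKN1A stand far apart at 2.18 and 4.78, those of CDKN2A and CDKN2C are apart by 0.38 and 0.43, and those of CDKN1C and CDKN2D nearly coincide.

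The size of the response was compared between the batches by the interaction of batch and group in limma. It differed at an adjusted p under 0.1 for 3 of the 7 inhibitors, CDKN1A, CDKN2A and CDKN2C, and for 4.21% of all genes tested. CDKN1A rose 4.54-fold in batch A and 27.6-fold in batch B, a difference of 2.60 ± 0.39 (SE) on the log2 scale with an adjusted p of 0.00191. Its mean non-senescent level was 1.84 times higher in batch B than in batch A, and its senescent level 10.5 times higher.

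CDKN2A had log2 fold changes of -0.26 in batch A and -0.65 in batch B (difference -0.38 ± 0.10, SE, adjusted p of 0.0709 by limma). CDKN2C had log2 fold changes of -0.37 and -0.80 (difference -0.43 ± 0.12, SE, adjusted p of 0.0703 by limma). Both started higher in batch B, where non-senescent levels were 2.09 times those of batch A for CDKN2A and 2.65 times for CDKN2C. These 2 calls depended on single libraries: CDKN2A lost it without any 1 of 7 libraries (adjusted p of 0.103 to 0.310 by limma) and CDKN2C without any 1 of 7 (0.101 to 0.359), all 4 libraries of batch A among them in both cases. CDKN1A was called with any 1 of the 12 libraries left out.

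The fitted responses of CDKN1C and CDKN2D were close in both batches. The log2 fold changes of CDKN1C were 1.496 and 1.58 (difference 0.08, 95% interval -0.23 to 0.40), although its non-senescent level was 2.39 times higher in batch A. Those of CDKN2D were -1.37 and -1.38 (difference -0.01, interval -0.34 to 0.33). For CDKN1B the interval of the difference was -0.21 to 1.07 and for CDKN2B -0.55 to 0.46. The intervals of CDKN1B, CDKN1C and CDKN2B hold a difference of the size seen for CDKN2A, 0.38, in at least 1 direction, and that of CDKN2D does not.

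The levels of different inhibitors were set side by side per kb of the main annotated transcript. Since 3′ reads do not grow with transcript length, this scale lowers long transcripts such as CDKN2B, of 3853 bases, relative to short ones such as CDKN2A, of 978 bases, and the order by normalised reads is given where it differs. In non-senescent cells of both batches the order per kb was CDKN2C, CDKN2A, CDKN1C, CDKN2D, CDKN2B, CDKN1B and CDKN1A, from the highest. Mean normalised reads per kb ran from 5256 for CDKN2C to 13.7 for CDKN1A in batch A and from 13947 to 25.1 in batch B. Neighbours in this order did not overlap between libraries, other than CDKN1B and CDKN1A in batch B. By normalised reads the order was the same in batch A, but in batch B CDKN2B (mean 540) stood above CDKN2D (449), with overlapping libraries.

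In senescent cells of batch B, CDKN1A was in the fourth place on both scales, at 663 normalised reads per kb. Below it, CDKN2D and CDKN2B overlapped per kb (means of 121 and 120), while by normalised reads CDKN2B, at 419 to 528, was above CDKN2D, at 163 to 190. In senescent cells of batch A, CDKN1C and CDKN2C overlapped per kb (means of 4272 and 4063), but by normalised reads CDKN1C, at 7403 to 7744, was above CDKN2C, at 3783 to 4302. CDKN1A was below CDKN2B there on both scales, at 63.0 against 88.4 normalised reads per kb. CDKN2D was above CDKN2B per kb (159 against 88.4) and below it by normalised reads (227 against 340.5).

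The 7 genes together took 1754 to 1827 ppm of all reads in non-senescent and 1942 to 2022 ppm in senescent cells of batch A. In batch B they took 3334 to 3454 ppm in non-senescent and 2336 to 2618 ppm in senescent cells. Their sum was thus higher in the senescent libraries of batch A and lower in those of batch B, without overlap in either. CDKN1A was 0.112% to 0.334% of these reads in non-senescent libraries, 0.833% to 0.897% in the senescent libraries of batch A and 6.94% to 8.34% in those of batch B. CDKN1C went from 20.9% to 21.5% up to 48.6% to 49.6% in batch A, and from 4.45% to 5.22% up to 16.5% to 19.4% in batch B. The share of CDKN2C fell from a mean of 41.2% to 26.2% in batch A and from 58.4% to 43.5% in batch B. For each CDKN1A read there were 95.0 to 306 of CDKN2A in non-senescent libraries, 21.97 to 23.6 in senescent libraries of batch A and 3.21 to 3.74 in those of batch B.

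**Figure D3:**
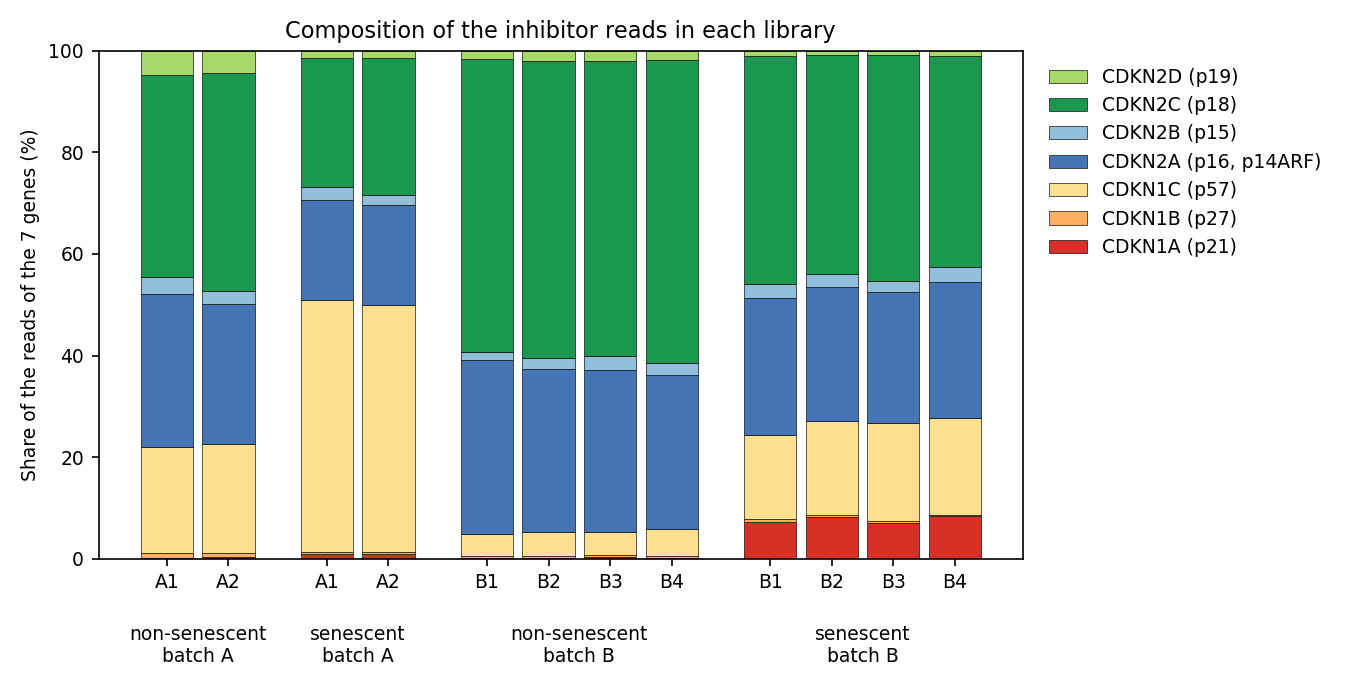
Share of each inhibitor in the summed reads of the 7 genes, in percent, for each library, grouped by batch and state. The share of CDKN1C (yellow) grew and that of CDKN2C (dark green) shrank in the senescent libraries of both batches, and CDKN1A (red) became visible as a band only in the senescent libraries of batch B, at 6.94% to 8.34%.

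The kinases and cyclins that the inhibitors bind were examined as a list of 16 genes, of which 13 were tested. There were 8 lower and 1 higher in senescent cells, or 61.5% and 7.69% of those tested against 11.8% and 11.6% of all genes, with a median log2 fold change of -0.71. The mitotic CCNB2 (-3.04 ± 0.17, SE) and CDK1 (-2.97 ± 0.10) fell most of this list. Of the kinases that INK4 proteins target, CDK4 fell from 1079 to 648 normalised reads (-0.71 ± 0.10, adjusted p of 2.65e-05 by limma), about as much as CDKN2C on the log2 scale. CDK6, at 11.1 normalised reads in non-senescent and 25.3 in senescent cells, rose by 1.06 ± 0.30 (adjusted p of 0.0102). CCND1 was almost without reads, with 1 read in the 6 non-senescent and 0 in the 6 senescent libraries. A count of 0 allows up to 3 reads in each library. CCND2 had 0 reads in both groups. The D-type cyclin with reads was CCND3, at 84.6 normalised reads in non-senescent and 70.1 in senescent cells. It was not called (-0.27 ± 0.17, adjusted p of 0.220 by limma).

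Downstream of the kinases, the list of pocket proteins and E2F factors had 6 of 13 genes lower, or 46.2%, and 0 higher, with a median of -0.57. E2F1 (-2.64 ± 0.11, SE) and E2F7 (-2.37 ± 0.32) fell most, and RB1 was at -0.41 ± 0.12, which was under the fold change limit. Of 13 partners and homologues outside the family, 8 were lower, or 61.5%, and 0 higher (median -0.98), led by CDKN3 (-2.68 ± 0.13), a phosphatase of CDKs and no member of either inhibitor family in spite of its symbol, and by CDC25C (-2.66 ± 0.31), a phosphatase that activates CDK1.

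Among regulators, the list of factors upstream of CDKN1A had 13 of 15 genes tested, 2 lower and 0 higher (median 0.04). The 15.4% that were lower are near the 11.8% of all genes. The transcription factors SP1 and TFAP2A were those that fell, by 0.86 ± 0.12 and 1.97 ± 0.56 on the log2 scale (adjusted p of 1.78e-05 and 0.00948 by limma). MDM2, an E3 ubiquitin ligase, was not called over both batches (0.38 ± 0.17). Its response differed between batches (interaction adjusted p of 0.00847 by limma). MDM2 went from 319 to 336 normalised reads down to 223 to 264 in batch A (-0.43). In batch B it went from 102 to 113 up to 146 to 215 (0.78). MYC, which represses CDKN1A in many cells, had 17 reads in the 6 non-senescent and 8 in the 6 senescent libraries, under the filter.

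The list for p27 turnover and FOXO factors had 3 of 17 genes lower and 2 higher (median 0.14). These shares, 17.6% and 11.8%, are near the 11.8% and 11.6% of all genes. The lower genes were CKS1B (-1.98 ± 0.09, SE), a cofactor of SKP2 in the degradation of p27, its homologue CKS2 (-1.96 ± 0.13), and SKP2 itself (-1.29 ± 0.20). FOXO3, a transcription factor that can activate CDKN1B, rose by 0.86 ± 0.10 and AKT1 by 0.80 ± 0.09, while CDKN1B was not called. Of the Polycomb and other regulators of the INK4 locus, 23 of 24 were tested, 7 were lower, or 30.4%, and 2 higher, or 8.70% (median -0.09). EZH2, the methyltransferase of the repressive complex that silences CDKN2A in many cells, fell from 223 to 66.9 normalised reads (-1.74 ± 0.12), and ID4 fell by 0.97 ± 0.19 on the log2 scale. BMI1 was at 0.34 ± 0.10, under the fold change limit, and CBX6 (1.44 ± 0.10) and ID1 (1.22 ± 0.31) rose.

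**Figure D4:**
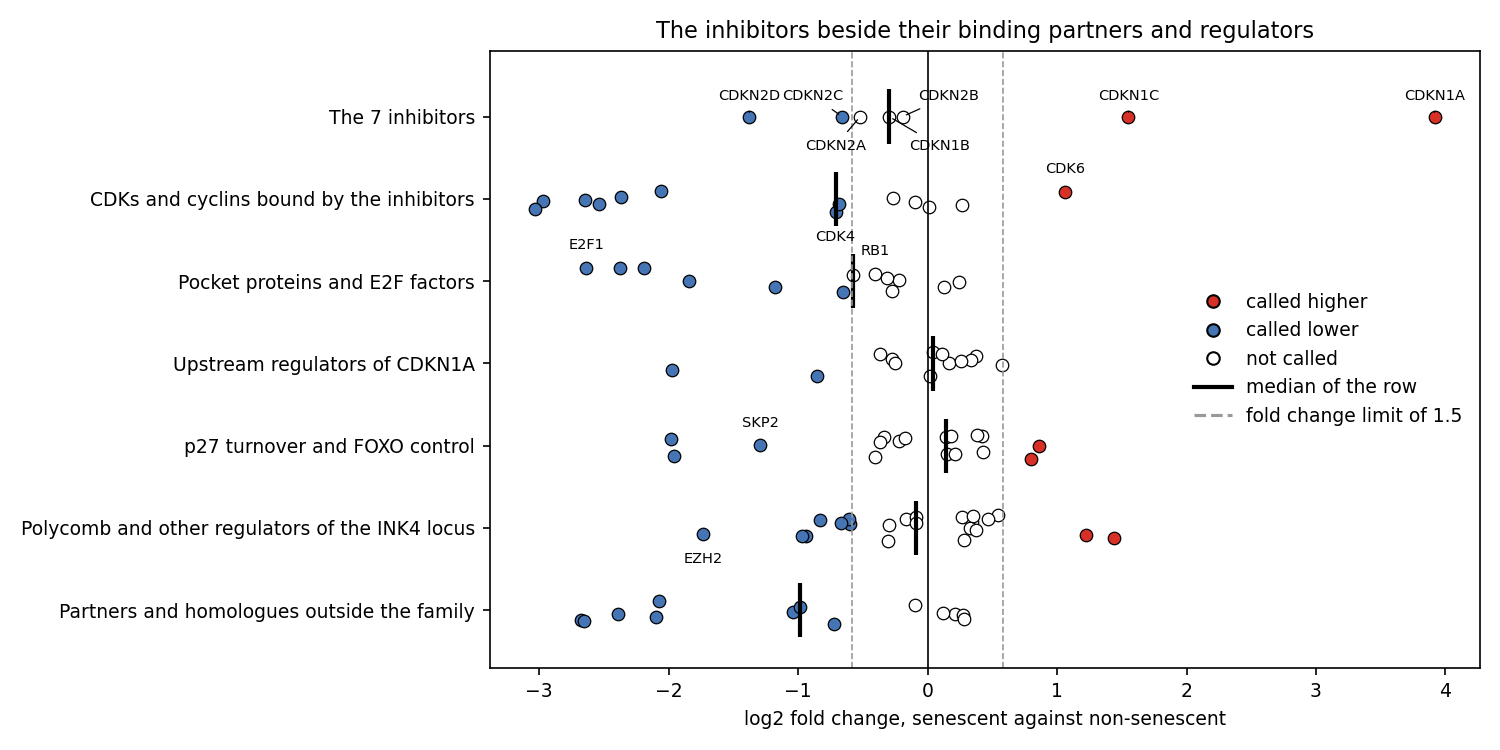
log2 fold changes of senescent against non-senescent cells for the 7 inhibitors (top row) and for the tested genes of 6 lists of their partners and regulators, with filled points for called genes, a bar at the median of each row and dashed lines at a fold change of 1.5. The inhibitors hold the point farthest to the right, CDKN1A at 3.92, while the medians of the CDK and cyclin list (-0.71) and of the partners (-0.98) lie below 0.

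The genes whose pattern was most like that of a called inhibitor were found by the Pearson correlation of log2 values, centred within each batch, over the 12 libraries and 11675 genes whose mean reached 20 normalised reads. The values are a description, since all libraries share the 2 states. For CDKN1A these were MECOM (r = 0.991), C16orf45 (0.991) and PRKAR1A (0.989). For CDKN1C they were C11orf95 (0.992), TMOD1 (0.992) and the acinar marker CPA1 (0.990). For CDKN2C they were ACTG1 (0.996), DDX39A (0.985) and H3F3B (0.983), and for CDKN2D the mitotic genes MELK (0.996), PLK1 (0.996) and PTTG1 (0.995).

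Genes next to the inhibitors were compared with them. SLC22A18, next to CDKN1C and 13946 bases away, was lower (-0.63 ± 0.24, adjusted p of 0.0491 by limma) while CDKN1C rose, and KCNQ1 on its other side was under the filter, its 6 non-senescent libraries holding 7 reads in sum and its senescent ones 46. FAF1, which lies 478 bases from CDKN2C on the opposite strand, fell by 0.62 ± 0.10 on the log2 scale, close to the -0.66 of CDKN2C. KRI1, 429 bases from CDKN2D, was at 0.11 ± 0.13 and AP1M2 at 0.23 ± 0.09, neither of them called. MTAP, 30101 bases from CDKN2A, was at -0.09 ± 0.12, and SRSF3, 70860 bases from CDKN1A, at -0.44 ± 0.07, under the fold change limit. DMRTA1, 437519 bases from CDKN2B, was not called (-0.52 ± 0.33). RAB44, 10489 bases from CDKN1A, and C1orf185, 127587 bases from CDKN2C, had 0 reads in all libraries. GPR19 overlaps CDKN1B on the opposite strand without shared exon bases and fell by 2.78 ± 0.45, from 87 reads to 12 over the 6 libraries of each group. APOLD1, 3548 bases from CDKN1B on the same strand, was called lower (-1.16 ± 0.53, adjusted p of 0.0947 by limma, 84 and 64 reads), and CREBL2 on the other side was at 0.29 ± 0.08 and not called.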

How the data were processed

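RNA of 6 senescent and 6 non-senescent EndoC-βH3 samples was measured by CEL-seq2. The authors used Cutadapt for trimming, Salmon 0.13.1 on GRCh38 for counting and DESeq2 for differential expression, as their methods state. The deposited signal is the normalised read count, and how its size factors were found is not given in the sources used here. Columns of DESeq2 output that the authors deposited beside it (log2 fold change, standard error, a score for the test, p-value and adjusted p-value) were not used. All 196021 non-zero values of the table were whole reads after multiplication by the size factor (100%, relative tolerance 1e-06), so reads could be recovered. How molecular identifiers were handled is not given in the sources used here, so reads may not be independent molecules.

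The main test was limma 3.58.1 (R 4.3.3) with an intensity trend on log2(value + 1) for the 13847 genes whose mean reached 5 normalised reads, with batch as a term. Calls required a fold change over 1.5 and a Benjamini-Hochberg adjusted p, taken over all tested genes, under 0.1. The pseudocount makes the fold changes of low genes too small. The response in each batch and its difference came from the interaction of batch and group. Nothing says that samples of a group were separate cultures, so p-values measure the spread between these samples, which may be technical. No pair of libraries of the same group and batch was alike within the sampling noise of independent reads (chi-square per degree of freedom of 4.14 to 7.66). Since reads may not be independent molecules, these values do not tell separate cultures from technical repeats.

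Other settings of the scaling, filter, pseudocount, batch term and trend were tried, as were a replicate block, subsets of the libraries and other tools (edgeR 4.0.16 and DESeq2 1.42.0 on recovered reads). Positions came from GENCODE v44, matched by symbol. Genes named were the 7 inhibitors, the 3 genes most like each called inhibitor, and genes that overlap or neighbour an inhibitor. For 6 lists of partners and regulators they were the 2 largest rises and falls, the D-type cyclins and genes acting directly on an inhibitor. The members and lists were chosen with earlier results of these data known. A gene of the lists is not reported here and was left out of their counts.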

Additional observations from a re-analysis of the deposited data

Results flagged for a closer look

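Among 28 sets of libraries, that is the 7 inhibitors in each group over both batches and in batch B alone, 1 held a library far from the others. In non-senescent cells of batch B, CDKN1B was at 104 normalised reads in library B3 and at 81.2 to 82.0 in the other 3, so that the gap to the nearest was 0.965 of the whole range. Chance marks about 1 in 20 such sets. CDKN1B was not called without that library either.

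The response of 3 inhibitors differed between the batches in limma's interaction test. That of CDKN1A was larger in batch B by 2.6 on the log2 scale (adjusted p of 0.00191, higher in all senescent libraries of both batches), and with single libraries left out the difference was 2.32 to 2.82 with adjusted p of 0.000202 to 0.0297.

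The response of CDKN2A was more negative in batch B, with a difference of -0.383 (adjusted p of 0.0709 by limma). It lost the call without non-senescent A1 (adjusted p of 0.153), A2 (0.309) or B1 (0.106), and without senescent A1 (0.175), A2 (0.310), B1 (0.103) or B2 (0.119). The response of CDKN2C was also more negative in batch B, with a difference of -0.431 (adjusted p of 0.0703). It lost the call without non-senescent A1 (0.289), A2 (0.138), B1 (0.104) or B4 (0.101), and without senescent A1 (0.113), A2 (0.359) or B2 (0.119). Leaving out a library of batch A leaves 1 library in that group and batch, which the fit takes to vary like the others. What differed between the batches beyond their letter and depth is not given in the sources used here.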

How the results depend on the processing

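Each inhibitor was refitted under 14 alternatives and with each of the 12 libraries left out. All log2 fold changes kept their direction, and no call changed when a library was left out. CDKN1A, CDKN1B, CDKN1C, CDKN2B and CDKN2D kept their call, or the lack of one, under all 14 alternatives, CDKN1A with log2 fold changes of 2.18 to 4.78, CDKN1C of 1.44 to 1.58 and CDKN2D of -1.48 to -1.34. For CDKN1B the adjusted p fell under 0.1 in batch A alone (0.0405, log2 fold change of -0.58, just short of the fold limit) and with equal library totals (0.0453, -0.40), as it did for CDKN2B in the latter case (0.0495, -0.30). It also did so for CDKN1B without senescent B1 (0.0750) or B2 (0.0957) and for CDKN2B without non-senescent B1 (0.0309). With single libraries left out the log2 fold change of CDKN1A was 3.65 to 4.19. CDKN2A was called lower in 2 of them, in batch B alone (-0.65) and after scaling to equal library totals (-0.63). CDKN2C was not called in batch A alone (-0.37) nor without the batch term (adjusted p of 0.227), so that 1 inhibitor instead of 2 was called lower in both cases. Without the batch term 2143 genes were called in all instead of 3237, and with libraries left out 3142 to 3277. The cause was not tested. The number of inhibitors whose response differed between batches was 3 under 6 other settings and 1 to 3 with single libraries left out. Scaling to the same total gave 37.0% higher genes among all calls against 49.6%. Samples with the same replicate number did not deviate together from the means of their group and batch (correlations of -0.0508 to 0.0164). In batch A the 2 deviations of a group mirror each other. These values therefore do not settle whether the numbers pair the samples. With a replicate block 3211 genes were called, and 2 inhibitors were higher and 2 lower as without it. Depth limits CDKN1A in non-senescent cells, with 18 reads in the shallowest case, and the CDKN1B values, with 47 to 211 reads per library.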

Other observations

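Of 92 genes tested in the lists of partners and regulators, the response of 4 differed between the batches (limma interaction, adjusted p under 0.1). That is 4.35% of them and near the 4.21% of all genes. The values of the 3 besides MDM2, named after they were seen, are given as a description. UHMK1, a kinase that phosphorylates p27, was at 308 and 310 normalised reads in non-senescent and senescent cells of batch A, and at 201 and 310 in batch B (log2 fold changes of 0.01 and 0.62, adjusted p of 0.0780). CABLES1, which links CDKs to their regulatory kinases, went from 37.1 to 87.2 in batch A and from 47.0 to 34.5 in batch B (1.22 and -0.43, adjusted p of 0.0263). CDKN2AIPNL, a homologue of a p14ARF-binding protein, went from 222 to 383 in batch A and from 416 to 420 in batch B (0.78 and 0.01, adjusted p of 0.0735).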
